A study of Mus musculus with 2 samples.

Results

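The genes described are 47 genes of DNA replication licensing and of the replication fork, chosen by name: every non-control probe on both arrays whose gene name is one of the 47 was taken. They were represented by 99 probes, each 60 bases long, of which the scanner software called 74 well above background on each array. Such probes are called detected here. All 47 genes had at least 1 probe detected on both arrays and count as measured, among 16993 measured genes in all. RNA came from C2C12 cells, a mouse myoblast line, cultured with horse serum so that they fused. The culture protocol says that myotubes were used, while the other labels name only C2C12 cells. In the KPC-exo culture the cells were exposed for 24 h to 4 µg of exosomes, vesicles released by cells, from a pancreatic cancer line of KPC mice (KrasLSL-G12D/+, Trp53LSL-R172H/+, Pdx1-Cre, a Cre driven by a pancreatic promoter). The control culture, MPDC-exo, was exposed for 24 h to exosomes from MPDC, a ductal epithelial line of mouse pancreas, at a dose not given in the sources used here. Each group is 1 culture on 1 array, so no difference has a replicate check and no test or p-value is given.

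DNA replication runs in steps. In G1 the origin recognition complex, with Cdc6 and Cdt1, loads the Mcm helicase on DNA, which licenses the origin. In S phase the Dbf4-dependent kinase, Cdc45 and the GINS complex turn the helicase on, and polymerases, the Pcna clamp and its loader then copy both strands from a supply of deoxynucleotides. Many of these genes are known targets of E2F transcription factors and are known to be low in cells that have left the cell cycle, as fused myotubes have. C2C12 cultures usually keep some unfused cells, and in a whole culture fewer cycling cells and less RNA per cell cannot be told apart.

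Signals were background-subtracted spot intensities, taken as log2 after each array was centred on its own 75th percentile, which was 639 units on the KPC-exo array and 380 units on the MPDC-exo array. Values in units are from before this centring, and only the log2 differences allow for the brighter KPC-exo array. Differences are KPC-exo minus MPDC-exo at the brightest measured probe of a gene. The ± beside a difference is the scanner software's error for the spots on both arrays, which ran from 0.20 to 0.32 on the log2 scale with a median of 0.20, and it holds no variation between cultures. Different probes of 1 gene differed with a pooled SD of 0.36 in log2 difference over 5736 genes, and of 0.29 over the 20 replication genes with at least 2 measured probes. The myotube markers were detected on both arrays, 10 of 10, with log2 differences from -0.43 to 0.34. Their summed signals before centring were 316432 units on the KPC-exo array and 179692 units on the MPDC-exo array. Of 6 pancreatic epithelial markers only Krt19 was detected, at 126 units on the KPC-exo array and 68.5 units on the MPDC-exo array. Its log2 difference was 0.13 ± 0.27.

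The replication genes lay close to the bulk of the genes. Their median log2 difference was 0.08, against 0.06 over all measured genes, and 25 of the 47 lay above 0 and 22 below it, while 24 exceeded the all-gene median and 23 did not. Higher by at least 1.3-fold with KPC-exo were 6 of 47 genes, or 12.8%, where 11.2% of all measured genes were. These 6 were Pold1, Cdc6, Pold2, Orc5, Pcna and Pole2. Fen1 was lower by at least 1.3-fold, which is 1 of 47, or 2.13%, beside 7.83% of all measured genes. In either direction the background share was 19.0%. No replication gene was 1.5-fold apart, against 3.73% of all measured genes higher, 3.7% lower and 7.43% in either direction. At 2-fold the background shares were 0.73% higher, 1.19% lower and 1.92% in either direction. The other 40 genes lay within 1.3-fold. The scanner error was exceeded by 19 of the 47 differences, but no all-gene share of that count is given. That error is smaller than the pooled SD of 0.36 between probes of 1 gene, so the count is not one of changed genes. The count rests on the scaling: with the arrays centred on the median, or on the 75th percentile of the probes detected on both, 3 replication genes were higher and 3 lower. It was 4 higher and 3 lower with cyclic loess, 6 and 2 with quantile normalization, and 47 and 0 with spike-in centring. Over all genes the split was 1906 higher and 1331 lower, and 1405 and 1694 with median centring, 1381 and 1716 with detected-probe centring, 1564 and 1508 with quantile normalization, 1309 and 1699 with cyclic loess and 16420 and 88 with spike-in centring.

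**Figure D1:**
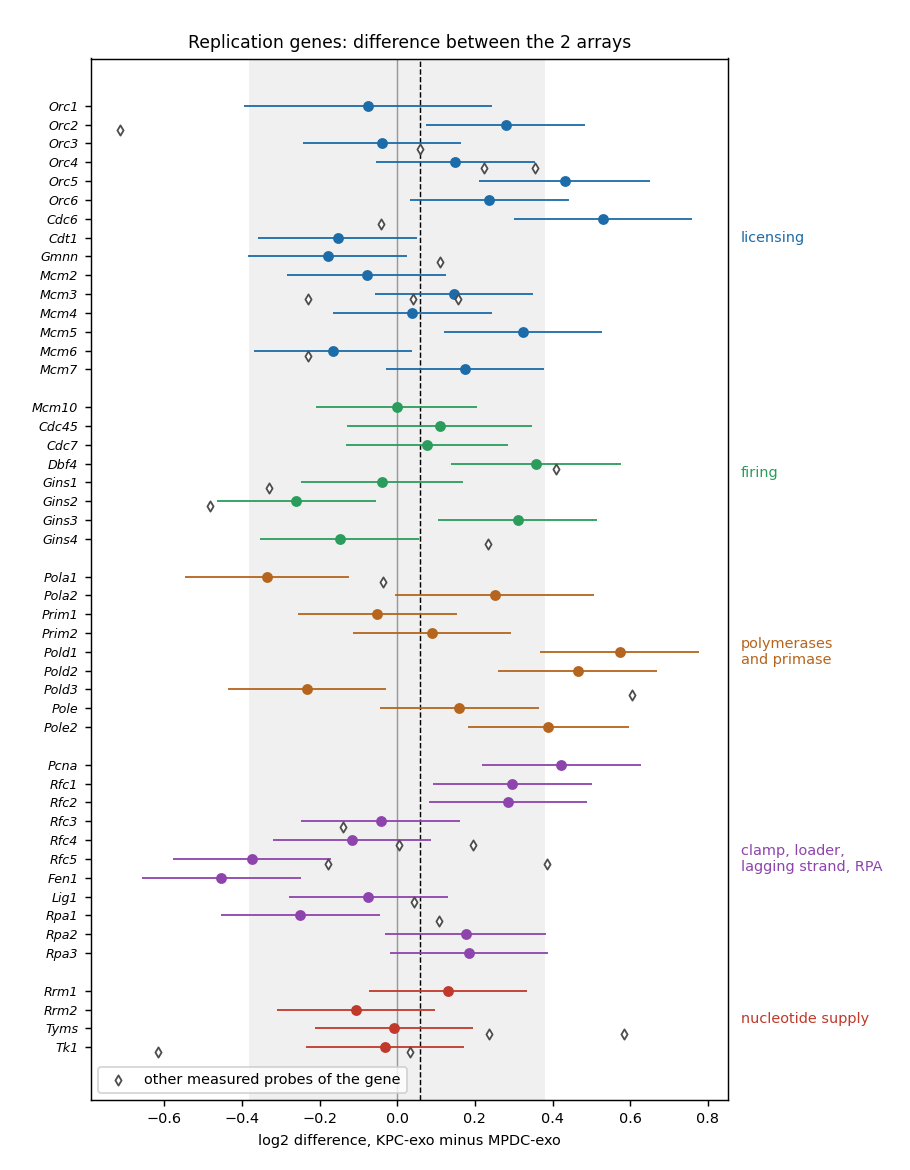
Log2 difference (x axis, KPC-exo minus MPDC-exo) of each replication gene at its brightest measured probe (filled points, bars are the scanner error), with the other measured probes of the gene as open diamonds. The shaded band is within 1.3-fold and the dashed line is the median of all measured genes, 0.06. Filled points outside the band are Pold1, Cdc6, Pold2, Orc5, Pcna and Pole2 on the right and Fen1 on the left.

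The probes of these 7 genes are shown first, because the differences rest on them. The sequences are as the deposited array files give them, 5′ to 3′, with mm9 coordinates from the same files. The probes of Orc5, Pold1, Pole2 and Pcna span an exon junction, as their genomic span exceeds their length, and are given whole. Of the others the first 30 of 60 bases are given. No base is singled out, so all are in lower case.
Orc5, chr5:22005853-22022527, minus strand: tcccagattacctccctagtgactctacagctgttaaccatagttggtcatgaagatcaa
Pold1, chr7:51788221-51788589, minus strand: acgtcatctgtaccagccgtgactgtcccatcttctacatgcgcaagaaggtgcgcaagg
Pole2, chr12:70307465-70308864, minus strand: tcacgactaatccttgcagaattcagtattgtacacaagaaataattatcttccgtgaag
Pcna, chr2:132075420-132075557, minus strand: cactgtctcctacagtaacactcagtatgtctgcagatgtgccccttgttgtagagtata
Cdc6, brighter probe, chr11:98782801-98782860, plus strand: acatagtgagcttgagctggcctggactac
Cdc6, dimmer probe, chr11:98782573-98782632, plus strand: ccccagaatcttcattttagtaaggtcgtt
Pold2, chr11:5772194-5772252, minus strand: agcgggctcaggacatcacccttgcaatgc
Fen1, chr19:10273675-10273734, minus strand: ggcaatcaattgaattgaggttttgggaga

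Of the licensing genes 9 of 15 lay above 0, with a median log2 difference of 0.15, while 8 exceeded the all-gene median and 7 did not. The median was 0.028 with the mean over probes, and 0.057 with spots of flagged local background left out, which is 0.0019 relative to all genes. Cdc6, the loading factor that joins the origin recognition complex, had 256 units on the KPC-exo array and 106 units on the MPDC-exo array, a log2 difference of 0.53 ± 0.23. Its probes did not point the same way, since the dimmer one had 117 units on the KPC-exo array and 71.8 units on the MPDC-exo array, a log2 difference of -0.04. The local background of that dimmer spot was flagged on the KPC-exo array, and without flagged spots Cdc6 had 0.53. The value for Cdc6 therefore holds at 1 probe of 2, and its mean over both was 0.24. Both Cdc6 probes are dim, and the gene lay at the 19.9 percentile of signal among measured genes.

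The origin recognition complex, made of Orc1 to Orc6, marks origins. Orc5, which had 305 units on the KPC-exo array and 135 units on the MPDC-exo array, was its 1 subunit past 1.3-fold, with a log2 difference of 0.43 ± 0.22. The other 2 Orc5 probes were detected on neither array. Orc6 had 14897 units on the KPC-exo array and 7527 units on the MPDC-exo array, a log2 difference of 0.24 ± 0.20. Orc4 had a log2 difference of 0.15, with all 3 measured probes above 0, from 0.15 to 0.35. Orc1, the subunit whose level is known to follow the cell cycle, had 82.8 units on the KPC-exo array and 52.0 units on the MPDC-exo array, a log2 difference of -0.08 ± 0.32. Orc3 had a log2 difference of -0.04, and 0.06 at its second measured probe.

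Orc2 was the gene of the complex whose probes disagreed most. Its brighter probe had 1163 units on the KPC-exo array and 571 units on the MPDC-exo array, a log2 difference of 0.28 ± 0.21. The dimmer probe had 289 units on the KPC-exo array and 283 units on the MPDC-exo array, a log2 difference of -0.71 ± 0.21. The mean over both probes was -0.22, so the direction of Orc2 depends on the probe. The first 30 bases of each are shown because the probes lie on opposite sides of 0.
Orc2, brighter probe, chr1:58520162-58520221, minus strand: tctctcctttaagacacaagacctgagctc
Orc2, dimmer probe, chr1:58537830-58537889, minus strand: ctcagaagagtcaaggtcagaatagacttc

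The 6 subunits of the Mcm helicase, Mcm2 to Mcm7, lay within 1.3-fold, with 4 above 0, 2 below it and a median of 0.09. Of the 6, 3 exceeded the all-gene median and 3 did not. Mcm5 had the highest log2 difference of the 6, 0.32 ± 0.20, with 1680 units on the KPC-exo array and 800 units on the MPDC-exo array. Mcm6 had the lowest, -0.17 ± 0.20, with 11624 units on the KPC-exo array and 7768 units on the MPDC-exo array, and its other measured probe had -0.23. Mcm7, Mcm3, Mcm4 and Mcm2 had log2 differences of 0.18, 0.15, 0.04 and -0.08. Mcm3 had 4 measured probes with log2 differences from -0.23 to 0.16, and the brightest pair overlap on the genome, so they are not separate measurements. Among the 6, only the difference of Mcm5 exceeded its scanner error.

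Cdt1, which brings the helicase to origins, and Gmnn, which encodes geminin, the protein that holds Cdt1 back, lay on the same side. Cdt1 had 2828 units on the KPC-exo array and 1873 units on the MPDC-exo array, a log2 difference of -0.15 ± 0.20. Gmnn had 2670 units on the KPC-exo array and 1801 units on the MPDC-exo array, a log2 difference of -0.18 ± 0.20, and its other measured probe had 0.11. Neither difference exceeds the scanner error.

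**Figure D2:**
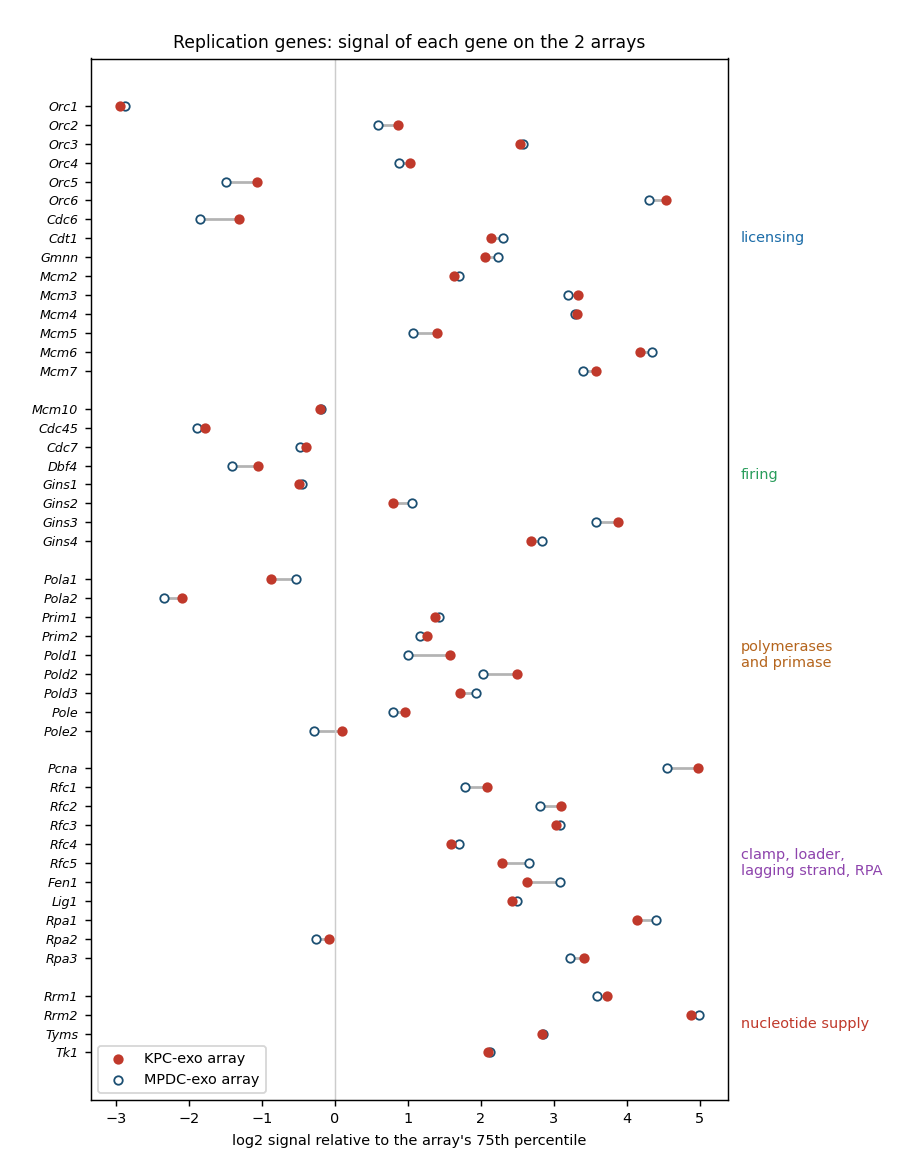
Log2 signal of each replication gene relative to the 75th percentile of its array (x axis), on the KPC-exo array (filled) and the MPDC-exo array (open), grouped by step. Points are to be compared within a gene, since probes differ in brightness. The gaps within a gene are at most 0.57.

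Genes that fire the origin had a median log2 difference of 0.04 over 8 genes, with 4 above 0, 4 below it and none past 1.3-fold. That median has no firm sign, as it was -0.02 with median centring and -0.05 with cyclic loess. Dbf4, the activating subunit of the kinase that triggers firing, had 308 units on the KPC-exo array and 143 units on the MPDC-exo array, a log2 difference of 0.36 ± 0.22, and its second measured probe had 0.41. The mean of these probes, 0.38, is just past 1.3-fold. Cdc7, the catalytic subunit of the same kinase, had 485 units on the KPC-exo array and 274 units on the MPDC-exo array, a log2 difference of 0.08 ± 0.21. Another Dbf4 probe, which was not matched to a RefSeq accession, was detected on the KPC-exo array alone, with 114 units there and 6.5 units on the MPDC-exo array. Against the lowest detected signal of the MPDC-exo array, its KPC-exo signal was higher by at least 2.18-fold, a gap larger than at either measured probe. The scanner error of its log2 difference was 1.46. An Orc4 and a Cdc45 probe were also detected on the KPC-exo array alone. The same ratio was 0.93 for Orc4 and 0.96 for Cdc45, so neither shows a gap.

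The GINS complex, a 4-subunit part of the active helicase, was split. Gins3 had 9428 units on the KPC-exo array and 4530 units on the MPDC-exo array, a log2 difference of 0.31 ± 0.20. Gins2 had 1108 units on the KPC-exo array and 790 units on the MPDC-exo array, a log2 difference of -0.26 ± 0.20, with -0.48 at its second probe. Gins4 had -0.15 at its brighter probe and 0.23 at the other, and Gins1 had -0.04 and -0.33. Cdc45, the factor that binds the helicase with GINS, had a log2 difference of 0.11 ± 0.24. Mcm10, which helps to activate the helicase, had 557 units on the KPC-exo array and 332 units on the MPDC-exo array, a log2 difference of 0.00 ± 0.21.

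The polymerase and primase genes held 3 of the 6 higher genes, which is 3 of 9 where 11.2% of all measured genes were higher. Of these 9 genes 6 lay above 0 and the same number exceeded the all-gene median, with a median log2 difference of 0.16. Over all measured genes, 10016 of 16993 lay above 0. Pold1, the catalytic subunit of polymerase delta, which copies the lagging strand, had the highest difference of all 47 genes. It had 1906 units on the KPC-exo array and 763 units on the MPDC-exo array, a log2 difference of 0.57 ± 0.20 or 1.49-fold, at its only probe. Pold2, a second subunit of the same enzyme, had 3596 units on the KPC-exo array and 1552 units on the MPDC-exo array, a log2 difference of 0.46 ± 0.20 or 1.38-fold, also at its only probe. In the settings tried other than spike-in centring, Pold1 ranged from 0.49 to 0.57 and Pold2 from 0.39 to 0.52, so both stayed past 1.3-fold in them.

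Pold3, the accessory subunit of polymerase delta that binds the clamp, gave opposite answers at its measured probes. The brighter had 2088 units on the KPC-exo array and 1461 units on the MPDC-exo array, a log2 difference of -0.23 ± 0.20. The dimmer had 325 units on the KPC-exo array and 127 units on the MPDC-exo array, a log2 difference of 0.61 ± 0.22. With the mean over probes Pold3 had 0.19, so its direction depends on the probe. The first 30 bases of both are shown for that reason.
Pold3, brighter probe, chr7:107230645-107230704, minus strand: gaatggaaaagtacaaggcaaccatccagt
Pold3, dimmer probe, chr7:107232163-107232222, minus strand: tgctgctctgggcaaagccaacagacaagt

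For polymerase epsilon, which copies the leading strand, Pole2 had 683 units on the KPC-exo array and 311 units on the MPDC-exo array, a log2 difference of 0.39 ± 0.21. Its catalytic subunit Pole had 1243 units on the KPC-exo array and 662 units on the MPDC-exo array, a log2 difference of 0.16 ± 0.20. Polymerase alpha with primase lays down the first RNA and DNA of each strand, and none of its 4 genes passed 1.3-fold as reported. Pola1, its catalytic polymerase, had 348 units on the KPC-exo array and 262 units on the MPDC-exo array, a log2 difference of -0.34 ± 0.21, with -0.04 at another probe. Pola1 was past 1.3-fold with median centring, detected-probe centring and cyclic loess, at -0.39, -0.39 and -0.42, and had -0.19 with the mean over probes. Pola2, Prim2 and Prim1 had log2 differences of 0.25, 0.09 and -0.05. A Pola2 probe not matched to a RefSeq accession was detected on the MPDC-exo array alone, with 40.0 units on the KPC-exo array and 160 units on the MPDC-exo array. Its KPC-exo signal was lower by at least 5.68-fold, with a scanner error of 0.41 on the log2 difference. This gap rests on 1 probe. The Pola2 probe that adjoins it on the genome was detected on neither array, with 39.3 units on the KPC-exo array and 15.2 units on the MPDC-exo array. The probe on the RefSeq transcript of Pola2 had 149 units on the KPC-exo array and 74.8 units on the MPDC-exo array.

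The clamp, its loader and the lagging strand genes held both the clamp, which was higher, and the flap nuclease, which was lower. The median of these 11 genes was -0.04, and it was 0.06 with normexp background correction. Pcna, the ring that tethers polymerases to DNA, had 20201 units on the KPC-exo array and 8975 units on the MPDC-exo array, a log2 difference of 0.42 ± 0.20 or 1.34-fold, at its only probe. Fen1, the nuclease that trims Okazaki fragments and is held by Pcna, had 3980 units on the KPC-exo array and 3244 units on the MPDC-exo array, a log2 difference of -0.45 ± 0.20, which is 1.37-fold lower. Fen1 also has 1 probe. Pcna ranged from 0.37 to 0.50 in the settings other than spike-in centring and Fen1 from -0.52 to -0.39. Lig1, the ligase that joins the fragments, had 3439 units on the KPC-exo array and 2157 units on the MPDC-exo array, a log2 difference of -0.07 ± 0.20.

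The clamp loader, replication factor C, opens the Pcna ring, and its 5 genes lay on both sides of 0. Rfc1, the large subunit, and Rfc2 had log2 differences of 0.30 ± 0.20 and 0.29 ± 0.20. Rfc3 and Rfc4 had -0.04 and -0.12. The other measured probe of Rfc3 had -0.14, while those of Rfc4 had 0.004 and 0.20. With the mean over probes Rfc4 had 0.03, so its direction depends on the probe. Rfc5 had 3114 units on the KPC-exo array and 2404 units on the MPDC-exo array, a log2 difference of -0.37 ± 0.20, just within 1.3-fold. Its other measured probes had -0.18 and 0.39, so 2 of the 3 lay below 0. Rfc5 was past 1.3-fold, between -0.44 and -0.43, with median centring, detected-probe centring, quantile normalization, cyclic loess and in the authors' deposited table of values. With the mean over probes it had -0.06.

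Replication protein A coats single-stranded DNA at the fork. Rpa1, its large subunit, had 11315 units on the KPC-exo array and 8013 units on the MPDC-exo array, a log2 difference of -0.25 ± 0.20, with 0.11 at its second probe. Rpa2 and Rpa3, the smaller subunits, both had a log2 difference of 0.18, with an error of 0.21 for Rpa2 and 0.20 for Rpa3. All lay within 1.3-fold.

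Genes of nucleotide supply lay between -0.11 and 0.13. Rrm2, the subunit of ribonucleotide reductase whose level is known to peak in S phase, had 18905 units on the KPC-exo array and 12118 units on the MPDC-exo array, a log2 difference of -0.11 ± 0.20. Rrm1, the partner subunit, had 8450 units on the KPC-exo array and 4597 units on the MPDC-exo array, a log2 difference of 0.13 ± 0.20. Thymidylate synthase (Tyms) had -0.01 and thymidine kinase (Tk1) -0.03, each with an error of 0.20. Their dimmest measured probes strayed furthest, to 0.58 in Tyms and to -0.62 in Tk1, both at probes not matched to a RefSeq accession. A second probe matched to RefSeq had 0.24 ± 0.20 in Tyms and 0.03 ± 0.20 in Tk1. With the mean over probes Tyms had 0.27 and Tk1 -0.20, so the value of each depends on the probe. The median of the 4 genes was -0.02, and 0.01 with the mean over probes.

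**Figure D3:**
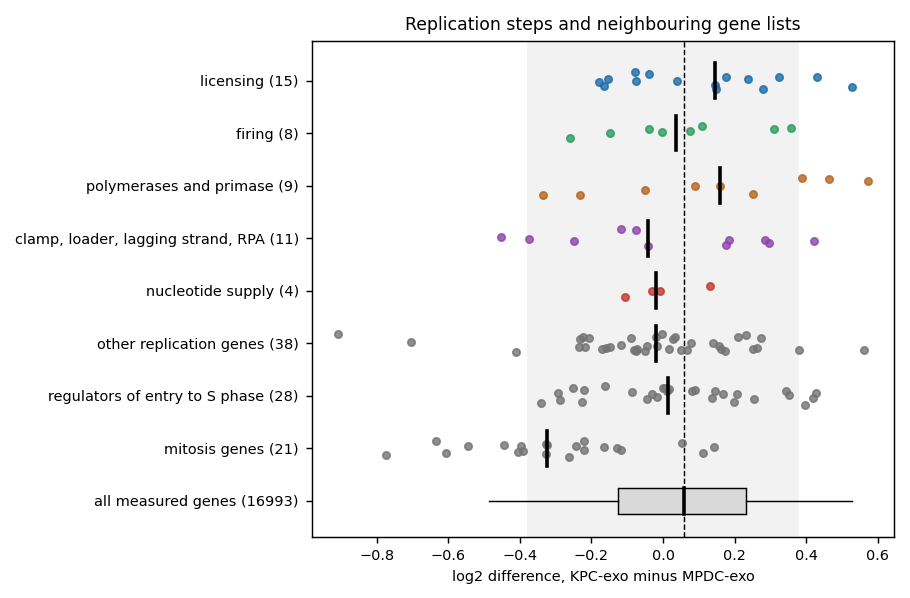
Log2 difference (x axis, KPC-exo minus MPDC-exo) of the measured genes of each replication step and of 3 neighbouring gene lists, with list medians as black bars and the number of measured genes in brackets. The box for all measured genes shows the quartiles and its whiskers the 5th and 95th percentiles. The step medians lie between -0.04 and 0.16 and the mitosis median at -0.32.

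Beyond the 47, 38 of 39 other replication genes were measured, and their median was -0.02. At least 1.3-fold higher were 2, or 5.26%, and lower 3, or 7.89%, beside 11.2% higher and 7.83% lower over all genes. Chtf8, part of an alternative clamp loader, had 12286 units on the KPC-exo array and 13737 units on the MPDC-exo array, a log2 difference of -0.91. Uhrf1, which guides maintenance DNA methylation behind the fork, had -0.71, and the topoisomerase gene Top2a -0.41, with its 3 probes from -0.69 to 0.09. Dna2, a nuclease that cuts long flaps, had 0.56 at a dim probe, with 91.1 units on the KPC-exo array and 36.8 units on the MPDC-exo array, and Mcm8 had 0.38. With normexp Dna2 had 0.03 and Mcm8 0.15. Chtf8, Uhrf1, Dna2 and Mcm8 each rest on 1 measured probe. Among 28 measured regulators of entry to S phase, 3 were at least 1.3-fold higher, a share no larger than the 11.2% of all genes, and 0 lower. Rbl2, which encodes the pocket protein p130, E2f5, a partner of p130 but not its only one, and Cdkn1c, a CDK inhibitor, had log2 differences of 0.43, 0.42 and 0.40. These 3 each rest on 1 measured probe and lay within 1.3-fold with median centring, at 0.37, 0.37 and 0.34.

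Of the 21 genes of mitosis, 0 were at least 1.3-fold higher and 8 lower, or 38.1% beside 7.83% of all genes, and 18 lay below 0, with a median of -0.32 against 0.08 for the replication genes. Relative to the median of all genes these medians were -0.38 and 0.02, and spike-in centring, which adds 1.00 to all genes, puts both above 0. Cenpe, a kinetochore motor, had 696 units on the KPC-exo array and 709 units on the MPDC-exo array, a log2 difference of -0.77. Nusap1, Cenpf and Aurka, a spindle protein, a centromere protein and a spindle kinase, had -0.63, -0.61 and -0.55. Cenpe, Nusap1 and Aurka each rest on 1 measured probe, and the 2 of Cenpf had -0.61 and -0.99. With spots of flagged local background left out, 17 mitosis genes had a value, 5 were lower and the median was -0.24, and Cenpe and Aurka had no value. No test of the gap between the lists was possible with 1 array a group. The lists were also chosen with earlier results of these data known, so the gap is a description only. The myoblast markers Pax7, Id1, Myod1 and Id3 had log2 differences of -0.28, -0.27, -0.09 and -0.05, each with an error of 0.20. None of these passed 1.3-fold, and Myf5 was detected on neither array. Of the 10 myotube markers 5 lay above 0 and 5 below it, and 2 were at least 1.3-fold lower. Summed myoblast marker signals before centring were 19995 units on the KPC-exo array and 12865 units on the MPDC-exo array. The leukocyte marker Cd68 had 374 units on the KPC-exo array and 144 units on the MPDC-exo array, a log2 difference of 0.63, and Ptprc had 0.29, while Adgre1 was detected on neither array. The fibroblast markers went both ways, with Pdgfra at 0.27, Dpt at -0.30 and Thy1 detected on neither array. The part of other cells in these values was not tested.

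Promoters were searched for E2F sites, a feature that did not choose the genes. RefSeq sequence on GRCm38.p6 from 250 bases before to 50 after each gene's start was given for 39 of the 47 genes. The motifs TTTGGCGC, TTTCGCGC, TTTCCCGC and TTTGCCGC were searched on both strands, where matches of different motifs can overlap. At least 1 match was found in 15 of the 39 genes, or 38.5%, against 704 of all 27025 genes in the table, or 2.6%. By step, matches were found in 8 of 13 licensing genes, 1 of 5 firing genes, 4 of 7 polymerase and primase genes, 2 of 10 clamp and lagging strand genes and 0 of 4 nucleotide supply genes. The 15 genes with a match had a median log2 difference of -0.04, with 3 at least 1.3-fold higher and 0 lower. The 24 without a match had a median of 0.12, with 3 higher and 1 lower. Over all measured genes 11.2% were higher and 7.83% lower, and counts this small do not separate the groups. Of the genes past 1.3-fold, Cdc6, Pold1 and Pole2 held a match, and Orc5, Pold2, Pcna and Fen1 held none of these letters in the window.

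Promoter stretches of 60 bases are shown for 6 genes with a match upstream of the start, because they cover licensing, helicase activation and priming. Capitals mark the motif matches, and positions are on GRCm38.p6.
Orc1, chr4:108579394-108579453, plus strand: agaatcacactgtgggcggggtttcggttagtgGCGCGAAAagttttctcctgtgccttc
Cdc6, chr11:98907987-98908046, plus strand: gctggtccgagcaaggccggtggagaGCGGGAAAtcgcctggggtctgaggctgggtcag
Mcm5, chr8:75109330-75109389, plus strand: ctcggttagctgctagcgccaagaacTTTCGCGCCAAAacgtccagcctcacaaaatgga
Mcm6, chr1:128359782-128359841, minus strand: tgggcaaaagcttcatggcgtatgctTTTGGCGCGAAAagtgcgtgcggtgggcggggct
Gins3, chr8:95633492-95633551, plus strand: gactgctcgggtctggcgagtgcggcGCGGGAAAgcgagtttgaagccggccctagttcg
Pola1, chrX:93632260-93632319, minus strand: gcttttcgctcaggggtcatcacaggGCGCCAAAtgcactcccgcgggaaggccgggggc
In Mcm5 and Mcm6 a match on each strand overlaps the other. Mcm5 and Mcm6 share that arrangement and lay on opposite sides of 0, at log2 differences of 0.32 and -0.17. A match describes these letters and does not show that a factor binds there.

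**Figure D4:**
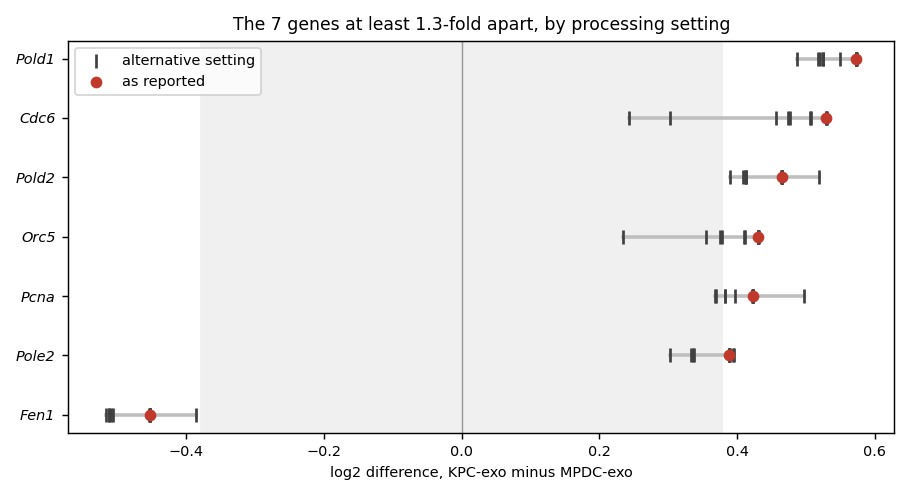
Log2 difference (x axis, KPC-exo minus MPDC-exo) of the 7 genes at least 1.3-fold apart, as reported (red) and under the other processing settings (black ticks), leaving out spike-in centring. The shaded band is within 1.3-fold. Pold1, Pold2 and Fen1 lie outside the band in each setting drawn, while Cdc6, Orc5, Pcna and Pole2 enter it in some.

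Of the 7 genes past 1.3-fold, 6 rest on 1 measured probe and the other, Cdc6, on probes that disagree. Among the 20 genes with at least 2 measured probes, all probes had the same sign in 7. No all-gene share of that count is given, so it does not set these genes apart. The pooled SD between probes was 0.29 for these 20 genes and 0.36 over 5736 genes. Cdc6 had a log2 difference of 0.30 with normexp background correction, and Orc5 had 0.23. Pole2 had 0.34 with median centring and 0.30 with cyclic loess. These values lie within 1.3-fold. Among the brightest probes of the 47 genes the local background was flagged on the KPC-exo array for Orc3, Mcm3 and Cdc7, and for none on the MPDC-exo array.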

How the data were processed

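Each culture was hybridised to 1 Agilent 1-colour array, with Cy3-labelled cRNA per the labels. The authors read the spots with Agilent Feature Extraction 10.7.1.1, per the submitters' processing notes and the file headers, and the deposited files hold spot intensity, background-subtracted within each array and not normalized between arrays. Both arrays shared 1 slide and 1 scan. The deposited value table holds log2 values whose making is not stated. Its columns, once sorted, differed by at most 0.00048, as quantile-normalized columns do. The authors' table and quantile normalization are therefore not separate alternatives. Both columns have a median of 4.88 and correlated across probes with log2 scanner values at 1.00, so the scale is log2, not centred per gene, in the same direction.

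Spots flagged as outliers were left out, 166 on the KPC-exo array and 102 on the MPDC-exo array. Log2 signals were centred on each array's 75th percentile. A gene is its brightest probe detected on both arrays, and 47.6% of probes were detected on the KPC-exo array and 45.9% on the MPDC-exo array. No spot was saturated. The number of arrays limits the precision. Of the 99 probes of the replication genes, 72 matched a RefSeq name, all the same name. RefSeq accessions named 32994 of 56605 probes.

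The genes and lists were chosen with earlier results of these data known. All 47 genes are named, and of each other list up to 4 genes in each direction that are at least 1.3-fold apart, plus cell type markers. A probe detected on 1 array has a bound, its normalized signal there over whichever is larger on the dim array, the lowest detected signal or the probe's. The pipeline's arithmetic was checked on a simulated copy of the MPDC-exo array with planted differences larger than those of the 47 genes. Its noise was smaller than the spread between probes of a gene. The check therefore does not show that differences of the reported size can be recovered. Python 3.11.15, numpy 2.4.6, pandas 2.3.3, R 4.3.3 and limma 3.58.1 were used.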

Additional observations from a re-analysis of the deposited data

How the results depend on the processing

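Alternatives were normexp with an offset of 50, median, detected-probe and spike-in centring, quantile and cyclic loess normalization, the mean over probes, keeping all dim probes, a stricter limit on dim probes, flagged spots kept, the authors' deposited log2 table and, chosen after seeing the data, spots with flagged background left out. Centring on 7 spike-in probes raised the median of all genes by 1.00. With it 47 replication genes were 1.3-fold and 46 were 1.5-fold apart, and the medians were 1.08 over the 47 genes, 1.14 for licensing, 1.04 for firing, 1.16 for polymerases, 0.96 for clamp and lagging strand and 0.98 for nucleotide supply. Fen1 turned to 0.55 there. Relative to all genes the median of the 47 was 0.019 both there and as reported. Keeping dim probes moved the median of all genes by -0.20 and no count of replication genes. At a threshold of 1.5-fold or 2-fold the count was 0 in place of 7. In the settings other than spike-in centring the count at 1.3-fold ran from 5 to 8 and no gene of the 7 changed direction, Cdc6 having no value under the stricter limit. The median of the 47 genes was 0.023 with median centring, 0.021 with detected-probe centring and -0.0076 with loess. That of licensing was 0.028 with the mean over probes. Relative to all genes the first pair stayed at 0.019, since the whole array shifted, and for the others the cause was not tested. The stricter limit left 43 genes, and Cdc7 had no value without spots of flagged background. No paired analysis was possible because each group has 1 array. Dim signal limits Orc1, Cdc6, Orc5, Cdc45, Dbf4 and Pola2, the 6 replication genes among the dimmest 25% of measured genes.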

Other observations

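Across the 47 replication genes the log2 difference had a Pearson correlation of 0.39 with the GC content of the probe and of -0.19 with the mean log2 signal, against -0.05 for each over all 16993 measured genes. These are descriptions across genes on the same 2 arrays, and genes are not independent replicates.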
